A study of Mus musculus with 35 samples.

Results

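The genes described here are the 59 whose mouse symbol runs from Zfp900 to Zfp999. They comprise every symbol made of Zfp9 and 2 more digits in the RNA-seq tables of neuroectoderm (NE) cells. They are 59 of the 18930 genes listed in any of the 3 tables. The name rule was set with earlier results of these data known, so counts of members beside the share of all genes are descriptions. Each of the 3 tables lists all 59, among 17948, 18091 and 17705 genes, and all 59 passed the filter on low values in every comparison tested. The lowest symbol present is Zfp930. Within them, the 16 genes numbered Zfp978 to Zfp993 were set beside the other 43, and this split was proposed with results of these data known, so the difference between the 2 sets of genes is given as a description with no test. Just inside the edges of the split, Zfp978 and Zfp993 differed from wild type by 2.15 and 0.94 (log2 fold change, Tet3m/m over Tet3+/+, day 3). Just outside, Zfp977 and Zfp994 differed by 1.82 and 0.28.

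The cells were V6.5 mouse embryonic stem cells (ESCs), a male line of mixed 129/C57BL/6 background, turned to NE by taking away LIF and adding 1 µM retinoic acid, for 72 h according to the labels. Tet3+/+ cells are wild type, Tet3m/m cells carry, on both alleles, amino acid substitutions in the iron-binding site of TET3 that remove its catalysis, and Tet3-/- cells have lost exon 4 of both alleles. The day 3 table holds 3 Tet3+/+, 3 Tet3m/m and 2 Tet3-/- samples without a vector, described in the study as independent clones. A second table holds 12 samples, 2 for each genotype with a plasmid for myc-tagged Dnmt1 and 2 with the empty vector (EV), transfected as differentiation began and kept under blasticidin. The last holds 6 samples, 1 for each genotype with a FUW plasmid coding for the catalytic domain (Tet3-CD, with an HA tag) and 1 with its EV, transfected part way through differentiation. By the transfection protocol these last cells were collected after day 3 and may be older than the others. Each edited genotype consists of 2 or 3 clones on day 3, so p-values there set the genotypes against the spread between these few clones. In the vector experiments the samples are not tied to separate clones. There an effect of the genotype and a difference between clones cannot be told apart. Replicate pairs differed by a median chi-square per gene of 4.04 to 11.8 on day 3 and of 1.45 to 2.73 in the Dnmt1 experiment, where nothing says that the 2 samples of a group came from separate clones, so p-values there measure only the spread between these samples. Reads in genes per sample numbered 36594650 to 47710548 without a vector. With the Dnmt1 plasmid or its EV there were 31155842 to 50845950, and with Tet3-CD or its EV 33475041 to 37707719.

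Most genes with such symbols encode KRAB zinc-finger proteins. An array of C2H2 fingers in each protein reads a DNA sequence, often one from a retrotransposon, and the KRAB domain recruits TRIM28 (KAP1), which brings SETDB1 and other enzymes that place H3K9me3 and silence the bound DNA. The genes arose by repeated tandem duplication and sit in clusters of near-identical copies, and many are active in ESCs and early embryos. No protein sequences were used here, so which of the 59 encode a KRAB domain was not checked, and for most of them no function more specific than this is stated.

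Of the 59 genes, 57 could be placed on a chromosome. The largest group was 16 genes on chromosome 4, followed by 13 on chromosome 17, 9 on chromosome 7 and 5 each on chromosomes 2 and 8. Of Zfp978 to Zfp993, 15 lie in the zinc-finger cluster of distal chromosome 4 and the remaining one, Zfp983, lies on chromosome 17. Zfp933, the other member on chromosome 4, lies just past the end of the cluster. Zfp997 and Zfp998 were not matched to a chromosome. The copies in the cluster share long stretches of transcript. A median of 36.1% of the 100-base stretches of a Zfp978 to Zfp993 transcript (range 1.6 to 75.0%, 16 genes) also occurred in the transcript of another gene, against a median of 1.4% (0.0 to 66.4%, 40 genes) for the other members with a sequence. Zfp987 (75.0%), Zfp991 (73.8%), Zfp993 (71.9%) and Zfp986 (70.0%) were the least distinct, and how the counting divided reads among such copies is uncertain. Zfp990 (1.6%), Zfp985 (1.9%) and Zfp982 (3.0%) were nearly free of shared stretches. Only exact matches of 100 bases were counted, and how reads were assigned to these genes was not checked.

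Some promoters of the cluster genes were close copies of each other, and they are shown because these genes moved together below. In the RefSeq table for GRCm38.p6, which gives 250 bases before and 50 after each start, 48 of the 59 members had a promoter, among them 9 of the 15 cluster genes. A stretch of 102 bases just upstream of the start is printed for 6 members and for Zfp600 and Rex2, zinc-finger genes of the same cluster whose names fall outside the range. It is written 5′ to 3′ on the gene's strand, and the capitals mark a first word of 12 bases and a last word of 20 bases that all 8 hold.
Zfp979: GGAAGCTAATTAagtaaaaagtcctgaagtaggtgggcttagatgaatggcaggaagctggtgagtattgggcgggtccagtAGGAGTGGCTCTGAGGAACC
Zfp980: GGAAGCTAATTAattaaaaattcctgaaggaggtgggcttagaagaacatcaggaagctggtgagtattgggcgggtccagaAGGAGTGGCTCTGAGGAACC
Zfp982: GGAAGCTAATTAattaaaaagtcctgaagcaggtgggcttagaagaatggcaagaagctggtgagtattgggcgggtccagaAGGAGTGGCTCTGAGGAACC
Zfp985: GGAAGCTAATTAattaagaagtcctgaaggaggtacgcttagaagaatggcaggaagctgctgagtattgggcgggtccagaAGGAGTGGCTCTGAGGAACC
Zfp987: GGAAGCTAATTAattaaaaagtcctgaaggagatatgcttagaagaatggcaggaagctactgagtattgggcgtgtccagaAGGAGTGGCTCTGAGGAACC
Zfp988: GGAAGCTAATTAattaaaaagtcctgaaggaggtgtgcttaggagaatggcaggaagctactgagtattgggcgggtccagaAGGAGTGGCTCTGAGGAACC
Zfp600: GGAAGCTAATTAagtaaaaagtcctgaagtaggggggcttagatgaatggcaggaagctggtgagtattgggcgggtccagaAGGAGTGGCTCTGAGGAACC
Rex2: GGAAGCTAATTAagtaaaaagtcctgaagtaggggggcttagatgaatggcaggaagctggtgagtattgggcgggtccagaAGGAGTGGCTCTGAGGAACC
The stretches lie at chr4:147642546-147642647 (minus strand) for Zfp979 and, on the plus strand, at chr4:145670558-145670659 for Zfp980, chr4:147492268-147492369 for Zfp982, chr4:147553143-147553244 for Zfp985, chr4:146097163-146097264 for Zfp987, chr4:147305492-147305593 for Zfp988, chr4:146156694-146156795 for Zfp600 and chr4:147021717-147021818 for Rex2. Identity between them was 90.2% at the lowest over 28 pairs, with a median of 92.2%, and the stretches of Zfp600 and Rex2 were identical. Searched on both strands of all 32851 promoters, GGAAGCTAATTA was found in 12 (0.0365%), all on chromosome 4: those of Zfp979, Zfp980, Zfp981, Zfp982, Zfp984, Zfp985, Zfp987, Zfp988, Gm13212, Rex2, Zfp534 and Zfp600. AGGAGTGGCTCTGAGGAACC was found in 9 (0.0274%), a subset of these. The promoters of Zfp981 and Zfp984 did not hold this longer word, and that of Zfp993 held neither. Both words were picked by looking at the sequences, and a match describes the sequence only. The cluster promoters held a median of 4.0 CG dinucleotides (11 promoters), against 9.0 for the other members (44 promoters) and 7.0 for all promoters.

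On day 3 the level of the members, given per kb of exon so that genes can be compared, had a median of 103 normalized counts per kb as the mean over all 8 samples (56 genes with a length), against 162 for all genes (17440). The highest were Zfp961 with 318, Zfp978 with 264 and Zfp958 with 256 normalized counts per kb. The lowest were Zfp974 with 30.2, Zfp964 with 26.4 and Zfp989 with 25. These means include the Tet3m/m samples. Over the 3 Tet3+/+ samples alone Zfp961 had 319, Zfp958 269, Zfp978 119 and Zfp989 10.4 normalized counts per kb, where the median of the members was 86.9, and Zfp978 ranked 14 of 56. As a check of the labels, Tet3 itself had values of 4613, 4576 and 5020 normalized counts in wild type, 2666, 2277 and 1945 in Tet3m/m and 1796 and 2329 in Tet3-/-. Both edited genotypes lay below wild type, and exon 4 was not counted separately, so the deletion itself was not tested. The labelled cell type was checked with 8 neuroectoderm markers. Their summed level was 13689 to 26375 normalized counts in the 8 samples, with Nes the most abundant. Nes alone gave 21181 of 26375 and 19689 of 23079 in Tet3-/-, and 10131 of 13689 in Tet3m/m replicate 1. The sums of these samples thus rested mostly on 1 marker. Otx2 was listed at 0 in Tet3+/+ replicate 1 and Hes5 at 0 in Tet3m/m replicate 1. In the EV samples of the Dnmt1 experiment the sums were 14333 and 14837 in Tet3+/+, 17317 and 16833 in Tet3m/m and 17141 and 16770 in Tet3-/-. Sox2, which also marks pluripotent cells, was the most abundant of these markers in Tet3m/m, with 14731 and 14051 normalized counts, and in Tet3+/+, with 5990 and 6301, while Nes led in Tet3-/- with 12451 and 11862. The Tet3m/m sums of that experiment were thus mostly Sox2, and the label rested there on little signal from the other markers. In the 6 samples of the Tet3-CD experiment the sums were 8274 to 17675, led by Nes.

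**Figure D1:**
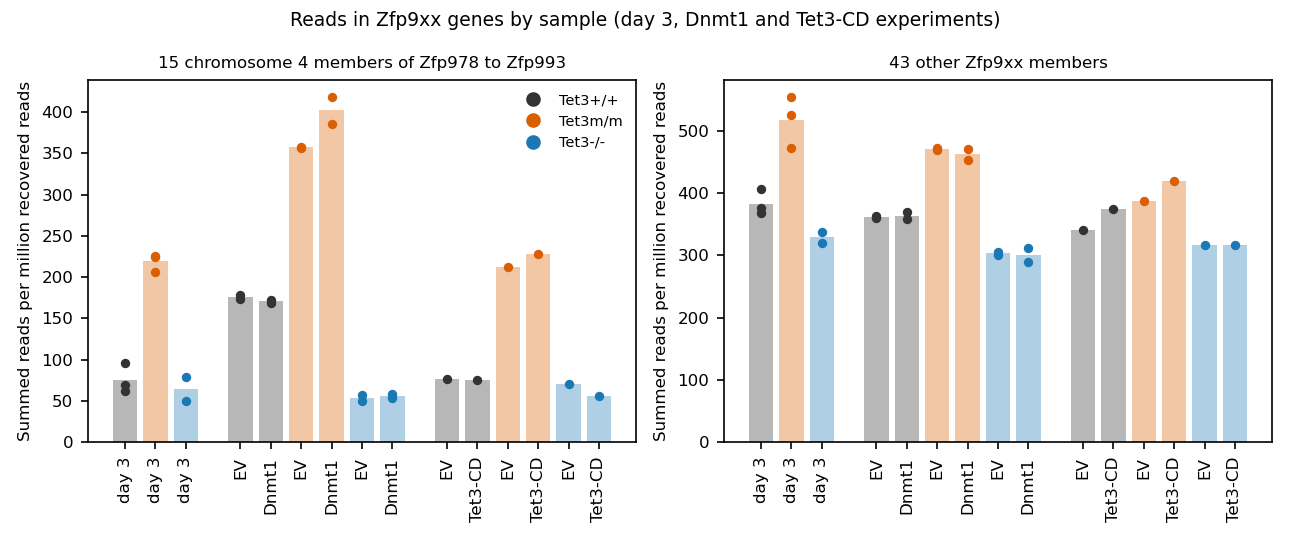
Reads in the 15 cluster genes and in the other 43 members by sample, as summed reads scaled to the total reads in genes (RPM, y axis), for all 26 samples grouped by experiment, vector and genotype (x axis); points are samples, bars are group means, and Zfp983 is in neither panel. The 3 day 3 Tet3m/m samples lie between 206 and 226 for the cluster genes, above the 5 samples of the other genotypes at 49.5 to 95.7.

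The first comparison sets Tet3m/m beside Tet3+/+ cells. Tet3m/m cells lack TET3 catalysis and, as given above, also had less Tet3 mRNA, and the 2 cannot be told apart here. In Tet3m/m NE cells the chromosome 4 cluster was more abundant as a whole, with 219 ± 11.3 RPM (SD, n = 3; RPM, summed reads scaled to the sample's total reads in genes) in its 15 genes against 75.6 ± 17.7 (n = 3) in Tet3+/+. The 3 Tet3m/m samples held 226, 206 and 225 RPM and the 3 Tet3+/+ samples 68.7, 95.7 and 62.5, so the groups did not overlap. The remaining 43 members summed to 517 ± 41.6 RPM in Tet3m/m and 383 ± 20 in Tet3+/+. Of the 59 members, 22 rose and 1 fell (adjusted p under 0.05 and a fold above 1.5, limma), where 10.2% of all genes tested passed in either direction, 5.06% higher and 5.19% lower. Those that rose were 13 of the 16 genes from Zfp978 to Zfp993 and 9 of the other 43. The median log2 fold change was 1.71 over the 16, 0.33 over the 43, 0.00 over 300 other numbered Zfp genes and 0.00 over all genes. Samples of the 2 groups did not overlap for 34 members that were higher in Tet3m/m, 14 of them from Zfp978 to Zfp993, and for 3 that were lower, where 18.4% and 18.3% of all genes did not overlap in these directions. These are bulk samples, in which more RNA per cell and more cells of a kind that express the genes cannot be told apart.

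Zfp978 had 107, 233 and 120 normalized counts in wild type, and in Tet3m/m 564, 582 and 803. Zfp980, whose promoter is printed above, had 103, 137 and 111 in wild type against 788, 516 and 597. For both genes every Tet3m/m sample exceeded every Tet3+/+ sample, by a log2 fold change of 2.15 ± 0.42 (SE, adjusted p = 0.00758, limma) for Zfp978 and 2.41 ± 0.42 (adjusted p = 0.00428, limma) for Zfp980. Zfp986 rose most, by 2.56 ± 0.40, from low counts of 14.5, 26.2 and 11.9 to 103, 100 and 104, and it is one of the copies with much shared sequence. Zfp990, the outermost gene on that side of the cluster and with almost none, was listed at 492, 747 and 548 in Tet3+/+ and at 1488, 1268 and 1483 in Tet3m/m. Its log2 fold change was 1.26 ± 0.18 (adjusted p = 0.00157, limma). Of the other cluster genes nearly free of shared stretches, Zfp985 rose by 1.83 ± 0.28 and Zfp982 differed by 1.13 ± 0.38 without passing (adjusted p = 0.0725, limma). The other cluster genes that rose were Zfp987 (2.37), Zfp981 (2.33), Zfp989 (2.28), Zfp988 (1.76), Zfp979 (1.66), Zfp991 (1.49), Zfp992 (1.35) and Zfp984 (0.64, log2 fold changes). Zfp993 (0.94, adjusted p = 0.205, limma) did not pass the test. Zfp983, the one gene of the number range that lies on chromosome 17, was listed at 153, 153 and 155 against 162, 147 and 126. Its groups overlapped, with a log2 fold change of -0.09 ± 0.30.

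**Figure D2:**
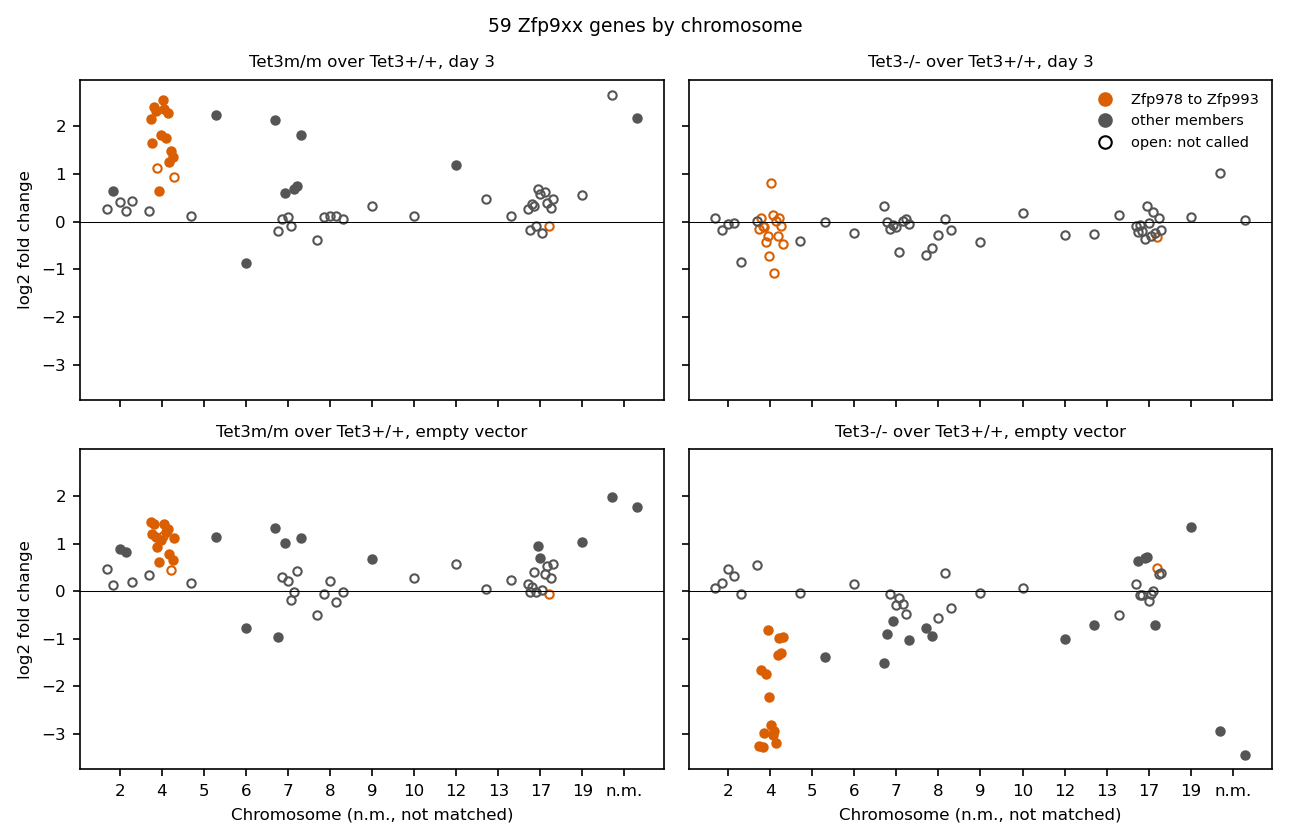
Log2 fold change (y axis) of each of the 59 members by chromosome (x axis; n.m., not matched) in 4 comparisons of genotypes, 1 point a gene, with Zfp978 to Zfp993 marked. On day 3 the 15 cluster genes on chromosome 4 had a median of 1.76 in Tet3m/m over Tet3+/+ (range 0.64 to 2.56), and Zfp983 on chromosome 17 lay at -0.09.

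Outside chromosome 4, Zfp951 on chromosome 5 and Zfp936 and Zfp977 on chromosome 7 moved as far as the cluster. Zfp936 rose from 282, 417 and 320 normalized counts to 1459, 1288 and 1721, a log2 fold change of 2.14 ± 0.23 (adjusted p = 0.000318, limma). Zfp951 went from 228, 231 and 202 to 1174, 902 and 1052, a change of 2.23 ± 0.24 (adjusted p = 0.000316, limma), the smallest adjusted p of the 59. In neither gene did the groups overlap, and the lowest Tet3m/m sample lay well above the highest Tet3+/+ sample. Zfp977 changed by 1.82 ± 0.27, from 106, 159 and 157 to 606, 423 and 464. Zfp998, with no chromosome matched, rose by 2.18 ± 0.38. Zfp997 differed by 2.67 ± 0.83, but its counts were few, 9.64, 23.3 and 0.988 against 78.9, 44.7 and 35.6, and it did not pass (adjusted p = 0.058, limma). Smaller rises were found for Zfp996, Zfp976, Zfp975, Zfp937 and Zfp941, by 1.19 to 0.61. Zfp956, the one member on chromosome 6, went the other way, from 456, 460 and 500 to 239, 230 and 311 (log2 fold change -0.87 ± 0.20, adjusted p = 0.0149, limma), with no overlap. The 5 genes on chromosome 8 had a median of 0.10 and the 13 on chromosome 17 a median of 0.33, and none of them passed.

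The promoters of Zfp951, Zfp936 and Zfp977 do not hold the words of the cluster. They share another word, CCTGCCAGTCAGAA, shown in capitals in 60-base stretches on each gene's strand beside Zfp970, a member on chromosome 2 that holds the word and differed by 0.41 on day 3 (adjusted p = 0.173, limma).
Zfp951: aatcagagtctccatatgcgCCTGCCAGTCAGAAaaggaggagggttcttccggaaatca
Zfp936: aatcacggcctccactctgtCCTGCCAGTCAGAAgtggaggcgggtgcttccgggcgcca
Zfp977: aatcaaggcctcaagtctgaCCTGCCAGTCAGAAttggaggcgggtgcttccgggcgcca
Zfp970: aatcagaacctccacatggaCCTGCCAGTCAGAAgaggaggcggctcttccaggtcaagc
These stretches lie at chr5:104860068-104860127 (minus strand), chr7:43177529-43177588 (plus strand), chr7:42592552-42592611 (minus strand) and chr2:177464675-177464734 (plus strand) of GRCm38.p6. The word was picked after the values of these genes had been seen. Counted on both strands it occurs in 49 of the 32851 promoters (0.149%), of 43 genes on 6 chromosomes, 9 of them members and none from Zfp978 to Zfp993. Of its 22 carriers that were tested on day 3, 6 rose in Tet3m/m and none fell, with a median of 0.44 and a range from -0.66 to 2.23, where 5.06% of all genes were called higher and 5.19% lower. Of the 11 tested carriers of the chromosome 4 word GGAAGCTAATTA, 10 rose, with a median of 2.33. Both words were picked from promoters of genes known to move, and every carrier of the 12-base word lies in the cluster, so nothing is read from these counts. Cluster genes with no promoter in the table rose as well, among them Zfp986, Zfp989, Zfp990, Zfp991 and Zfp992.

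**Figure D3:**
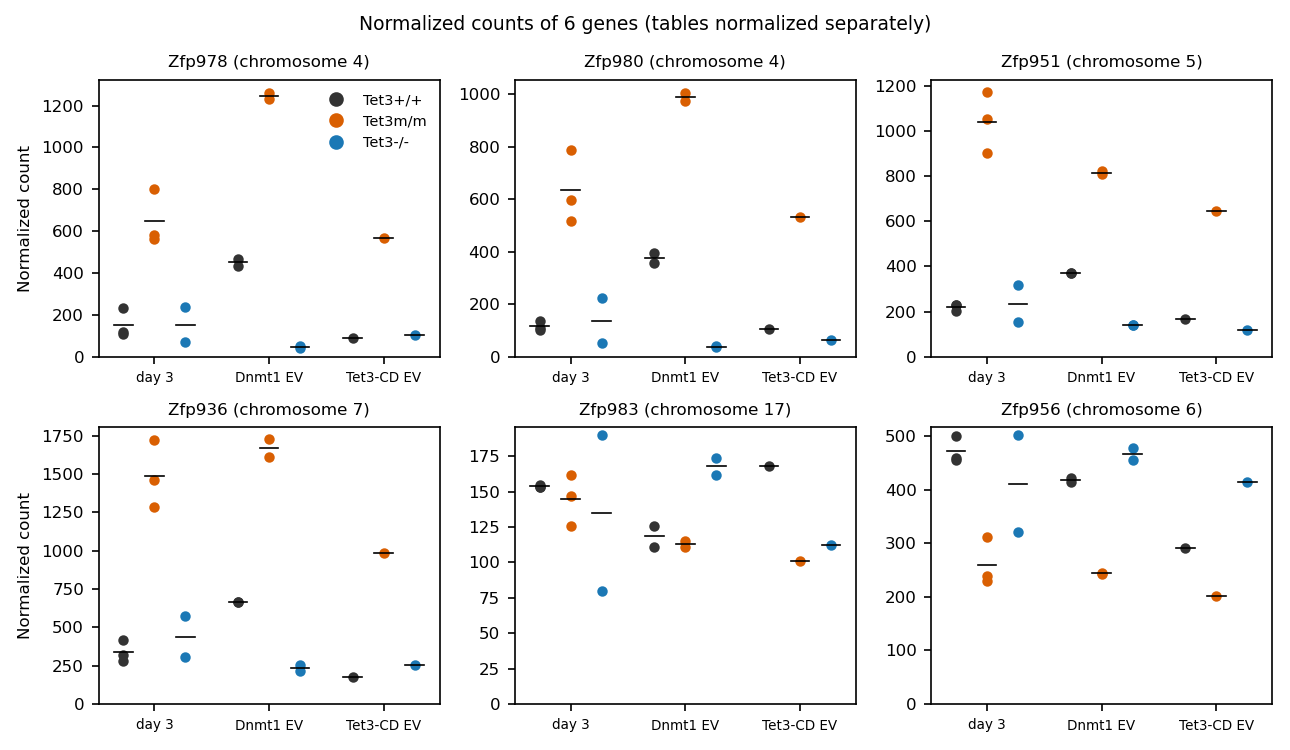
Normalized counts (y axis, linear) of 6 members in the day 3 samples and in the empty-vector samples of the Dnmt1 and Tet3-CD experiments (x axis), 1 point a sample, 1 colour a genotype and a line at each mean; the 3 tables were normalized separately. In the day 3 group the Tet3m/m points of Zfp978 lie at 564 to 803 and the Tet3+/+ points at 107 to 233.

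The same comparison was made for Tet3-/- cells, in which the gene itself is disrupted. On day 3 no member passed the test against Tet3+/+ with limma, where 0.642% of all genes did (0.458% higher and 0.184% lower). An unadjusted p under 0.05 was found for 7 members and for 3608 of the 17915 genes tested. With edgeR no member passed, where 86 of all genes did, and 6 members had an unadjusted p under 0.05. With DESeq2 2 members were called lower, where 917 of all genes were called in either direction. Samples did not overlap for 9 members that were lower and for none that were higher, where 20.4% and 20.8% of all genes did not overlap in these directions. The median over Zfp978 to Zfp993 was -0.14, against -0.07 over the other members. The cluster held 79.0 RPM in Tet3-/- replicate 1 and 49.5 in replicate 2, a mean of 64.2 ± 20.9 (SD, n = 2), within and below the Tet3+/+ range of 62.5 to 95.7. The 2 Tet3-/- clones stood apart in this sum and in some of its genes. Zfp978 was listed at 236 in replicate 1 and 70.6 in replicate 2, on either side of all 3 Tet3+/+ samples, and Zfp980 at 222 and 52.4 likewise, while Zfp988 was listed at 56.2 and 39.8, below all 3 Tet3+/+ samples in both. Leaving out replicate 1 moved the median to -0.62, leaving out replicate 2 moved it to 0.20, and leaving out Tet3+/+ replicate 2 moved it to 0.01, so its sign rested on single clones. Zfp988 had the largest difference in the cluster, -1.07 ± 0.28, and did not pass (adjusted p = 0.0818, limma).

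The 2 mutant genotypes were also set against each other. In Tet3-/- relative to Tet3m/m 25 members fell and none rose, where 9.73% of all genes passed in either direction, 4.33% lower and 5.41% higher. They were 14 of the 16 genes from Zfp978 to Zfp993 and 11 of the other 43, and the medians were -1.67 and -0.45. Zfp988 had the largest fall, -2.83 ± 0.28 (adjusted p = 0.000435, limma), from 311, 309 and 415 normalized counts to 56.2 and 39.8. Zfp985 fell by 2.56, Zfp980 by 2.52, Zfp981 by 2.45 and Zfp978 by 2.30 on the log2 scale, and Zfp951 on chromosome 5 by 2.23. Samples did not overlap for 40 members that were lower in Tet3-/- and 1 that was higher, where 20.2% and 20.7% of all genes did not overlap in these directions. Without Tet3-/- replicate 2, the lower of the pair, the number of members that fell was 15. This comparison uses the same Tet3m/m and Tet3-/- samples as those against wild type and is not independent of them.

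The cluster was then followed gene by gene along chromosome 4. Between the outermost of the 15, Zfp990 and Zfp984, lie 21 further tested genes that are not members, among them Zfp600, Rex2, Zfp534 and many gene models without a proper name. In Tet3m/m on day 3, 16 of these 21 rose and none fell, with a median of 1.65 (range 0.73 to 3.07), where 5.06% of all genes were called higher and 5.19% lower. In Tet3-/- none passed, with a median of 0.01, where 0.642% of all genes did. Zfp600, a KRAB zinc-finger gene, changed by 2.87 ± 0.32, Zfp534 by 2.52 ± 0.36 and Rex2 by 2.33 ± 0.50. The flanks of the cluster were counted in the same way. Of the 10 tested genes before Zfp990, 4 rose with a median of 0.99, while of the 10 after Zfp984, where Zfp933 lies, none passed and the median was 0.17. Zfp933 itself, listed at 320, 417 and 432 in Tet3+/+ and 490, 454 and 408 in Tet3m/m, differed by 0.22. Neighbouring copies share stretches of sequence as well as position, and the part of this in their common movement was not tested.

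**Figure D4:**
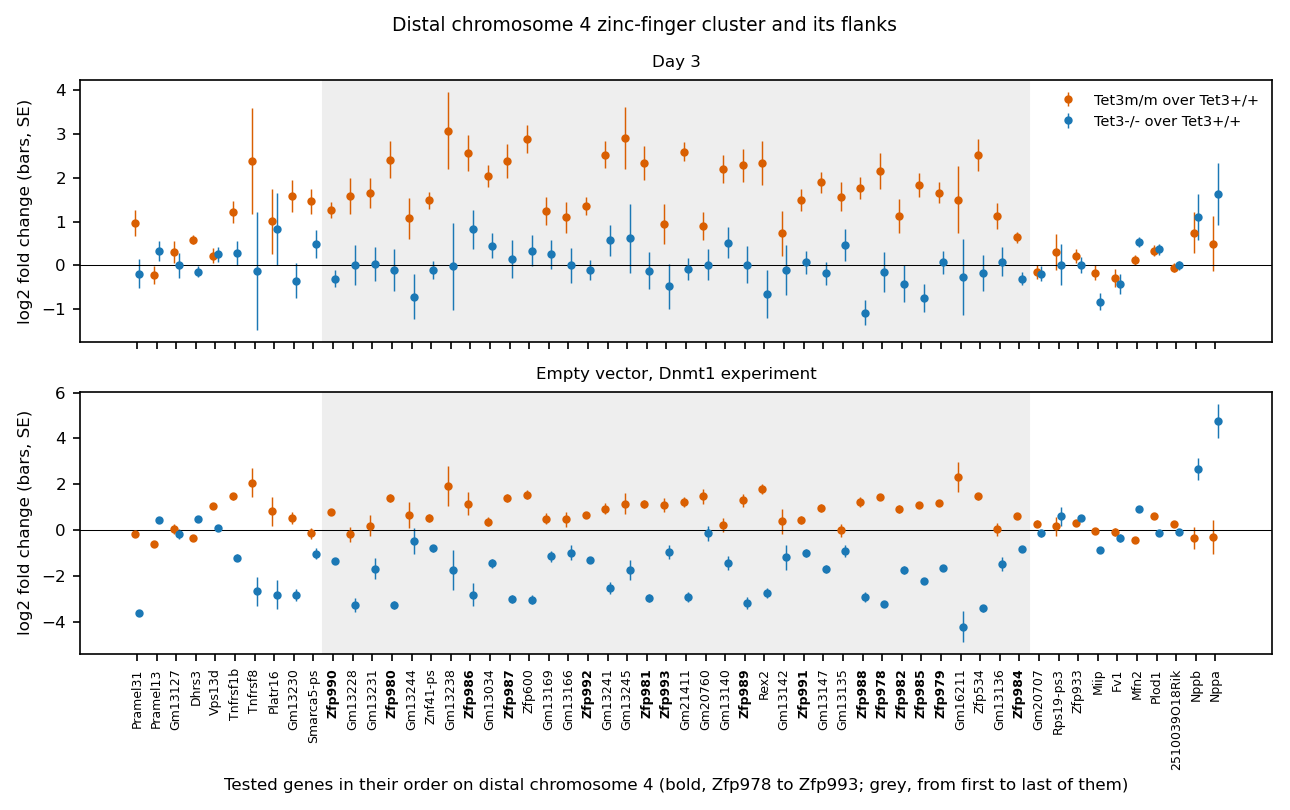
Log2 fold change with its SE (y axis) of the tested genes in their order along distal chromosome 4 (x axis, from the 10 genes before Zfp990 to the 10 after Zfp984), Tet3m/m and Tet3-/- over Tet3+/+, on day 3 (upper panel) and with the empty vector of the Dnmt1 experiment (lower panel); bold names are members from Zfp978 to Zfp993. On day 3 the Tet3m/m points of the 21 genes between them had a median of 1.65 and the Tet3-/- points a median of 0.01.

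The EV samples of the Dnmt1 experiment, none of which are shared with day 3, repeated the comparison of genotypes. The Tet3 values were 2957 and 3075 normalized counts in wild type, 1125 and 964 in Tet3m/m and 2520 and 2571 in Tet3-/-, so in this experiment the Tet3-/- samples lay close under wild type. In Tet3m/m 25 members rose and 2 fell, where 21.2% of all genes passed in either direction, 10.3% of them higher and 10.9% lower. Zfp978 to Zfp993 gave 13 of the 25, with a median of 1.12, and the other 43 members 12 of the 25, with a median of 0.28. Zfp978 went from 435 and 468 normalized counts to 1231 and 1261 and Zfp980 from 396 and 356 to 1006 and 975. The samples of the 2 genotypes lay far apart in both genes, and values did not overlap for 41 members that were higher and 4 that were lower, where 36.3% and 36.1% of all genes did not overlap in these directions. The tests of the 2 genes gave log2 fold changes of 1.46 ± 0.13 (adjusted p = 3.49e-09, limma) and 1.40 ± 0.17 (adjusted p = 4.13e-07, limma). Zfp936 changed by 1.32, Zfp951 by 1.14 and Zfp977 by 1.11, again as far as the cluster genes, while Zfp983 stayed at -0.07 ± 0.20. Zfp997 (1.97 ± 0.63) and Zfp998 (1.76 ± 0.28), the members without a chromosome, had the largest changes. Zfp956 fell by 0.78, from 422 and 415 to 243 and 245, and Zfp939 on chromosome 7 fell by 0.96.

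Across the 2 experiments 16 members rose in Tet3m/m both times, which is 72.7% of the 22 from day 3 and 64% of the 25 with EV. They were Zfp978, Zfp979, Zfp980, Zfp981, Zfp984, Zfp985, Zfp987, Zfp988, Zfp989, Zfp990 and Zfp992 of the cluster, and Zfp936, Zfp941, Zfp951, Zfp977 and Zfp998 from elsewhere. Of all genes 368 rose both times, 40.6% of 907 and 19.8% of 1862. Zfp956 was the 1 member that fell both times. In the cluster the differences were smaller with EV, with a median over its 15 genes of 1.14 (range 0.45 to 1.46) against 1.76 on day 3, and whether the 2 experiments differed was not tested because their tables were normalized separately.

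Tet3-/- cells with EV were compared with wild type next, a comparison in which no member had passed on day 3. All 15 cluster genes fell, with a median of -2.23 and a range from -3.28 to -0.82, and 27 members fell in all against 4 that rose, where 24.9% of all genes passed in either direction, 13.9% lower and 11% higher. The other 12 that fell came from the remaining 43, whose median was -0.08. Values did not overlap for 35 members that were lower and 13 that were higher, where 38.3% and 38.8% of all genes did not overlap in these directions. Zfp980 had 396 and 356 normalized counts in Tet3+/+ and 39.8 and 36.0 in Tet3-/- (log2 fold change -3.28 ± 0.17, adjusted p = 8.78e-13, limma). Zfp978 had 435 and 468 against 50.3 and 43.4 (-3.24 ± 0.13, adjusted p = 1.25e-14, limma). In both genes the groups lay far apart, with the 2 samples of a group close to each other. Zfp990, with little shared sequence, fell less, by 1.33 on the log2 scale, from 1127 and 1250 to 421 and 528. The fall of Zfp984, the outermost gene on the other side, was the smallest, 0.82 on the log2 scale. Zfp936 fell by 1.51, Zfp951 by 1.39, Zfp977 by 1.03 and Zfp998 by 3.43. Of the 9 members outside the cluster that rose in Tet3m/m on day 3, Zfp941 (-0.62) and Zfp996 (-1.01) fell here too, while Zfp976 (-0.48), Zfp975 (-0.27) and Zfp937 (0.18) did not pass. Zfp950 on chromosome 19, which was higher in Tet3m/m with EV (1.03), also rose in Tet3-/-, by 1.34 ± 0.15, and the other 3 that rose, Zfp943, Zfp946 and Zfp947 on chromosome 17, by 0.64 to 0.71. On chromosome 8, Zfp958 and Zfp930 fell by 0.94 and 0.77, and the median of its 5 members was -0.56. Of the 21 genes between the cluster members 17 fell, with a median of -1.69, and the log2 fold changes were -3.42 for Zfp534, -3.04 for Zfp600 and -2.74 for Rex2. On the near side 6 of 10 genes fell, and past Zfp984 1 of 10 fell and 3 rose.

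Compared with Tet3m/m instead, 30 members fell and 4 rose in Tet3-/- with EV, where 39.6% of all genes passed in either direction, 20.6% lower and 18.9% higher. Values did not overlap for 43 members that were lower and 7 that were higher, where 41.8% and 40.3% of all genes did not overlap in these directions. Of the 25 members that fell in the same comparison on day 3, 23 also fell here, 92% of those 25 and 76.7% of these 30. Of all genes 593 fell both times, 76.5% of 775 and 15.9% of 3723. The median over Zfp978 to Zfp993 was -3.08, and Zfp998 differed most, with 495 and 538 normalized counts in Tet3m/m and 13.8 and 12.7 in Tet3-/- (-5.18 ± 0.28, adjusted p = 5e-13, limma). Zfp956 was the opposite, higher in Tet3-/- by 0.93 ± 0.12.

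The level of the wild type moved between the experiments. The cluster held 176 ± 2.83 RPM (SD, n = 2) in Tet3+/+ with EV of the Dnmt1 experiment, 75.6 ± 17.7 on day 3 and 77.1 in the 1 EV sample of the Tet3-CD experiment. In Tet3-/- the same sums were 54.0 ± 5.02, 64.2 ± 20.9 and 69.9, and in Tet3m/m 358 ± 0.707, 219 ± 11.3 and 212. The 3 tables were processed apart, so these levels are set side by side with no test. The cells of the Tet3-CD experiment may also be older, as given above. The Tet3+/+ samples of the Dnmt1 experiment lay higher than those of the other experiments, and the Tet3-/- samples of all 3 lay between 49.5 and 79.0 RPM.

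Markers of other cell states also differed between the samples. Of 7 genes that mark two-cell-like cells, a rare ESC state in which many early embryonic genes are active, 6 were in the tables, and Gm8300 was not among them. Their summed normalized counts, most of them from Zscan4c and Zscan4d, were 1802, 2154 and 1168 in Tet3+/+, 9779, 7213 and 5973 in Tet3m/m and 2506 and 1448 in Tet3-/- on day 3. With EV they were 12830 and 11814 in Tet3+/+, 10908 and 12362 in Tet3m/m and 988 and 981 in Tet3-/-. They were thus high in Tet3+/+ and Tet3m/m with EV, the groups with the higher cluster sums, and low in Tet3-/-, and no defining marker was at 0. Between Tet3+/+ and Tet3m/m with EV these sums overlapped, where the cluster held 176 and 358 RPM. The 6 pluripotency genes summed to 20556 and 20453 in Tet3+/+, 62511 and 61116 in Tet3m/m and 4150 and 4287 in Tet3-/- with EV. On day 3 they summed to 5803, 7466 and 4865 in Tet3+/+, 5620, 9066 and 15762 in Tet3m/m and 7544 and 4322 in Tet3-/-, with overlap between the genotypes. Fibroblast markers, led by Col1a1, ran the other way with EV, with 18986 and 17303 in Tet3+/+, 2846 and 3085 in Tet3m/m and 35979 and 35927 in Tet3-/-. On day 3 they summed to 27521, 16669 and 20267 in Tet3+/+, 20297, 14498 and 10101 in Tet3m/m and 41845 and 47042 in Tet3-/-. Markers of primitive and visceral endoderm summed to 44337 and 42536 in Tet3m/m with EV, against 16900 and 17347 in Tet3+/+ and 10067 and 9622 in Tet3-/-. Trophoblast markers summed to 7843 and 8369 in Tet3+/+, 4412 and 4381 in Tet3m/m and 12719 and 12580 in Tet3-/- with EV. Krt7 was the most abundant of them in Tet3+/+ and Tet3-/-, and Tfap2c in Tet3m/m, with 3356 and 3339 normalized counts. Streak and mesoderm markers summed to 1080 and 1093 in Tet3+/+, 1330 and 1439 in Tet3m/m and 490 and 388 in Tet3-/-. On day 3 Tet3m/m did not overlap Tet3+/+ for these 3 lists either. Endoderm markers summed to 9096 to 12299 in Tet3m/m and 8161 to 8951 in Tet3+/+, mesoderm markers to 558 to 729 and 356 to 449, and trophoblast markers to 4755 to 8066 and 9425 to 10607. The part of these cell states in the zinc-finger results was not tested.

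Genes for partner proteins of the KRAB domain were counted in the same way. All 26 listed corepressor and heterochromatin genes were tested, and in Tet3m/m on day 3 1 rose and 3 fell, with a median of -0.04, where 10.2% of all genes passed. Trim28, which binds the KRAB domain, differed by -0.03 ± 0.14 and Setdb1, its H3K9 methyltransferase, by -0.11 ± 0.09. With EV Trim28 was 0.36 ± 0.04 higher in Tet3m/m (adjusted p = 9.06e-08, limma) and differed by -0.28 ± 0.04 in Tet3-/- (adjusted p = 2.25e-06, limma), both short of the fold threshold, and it fell in Tet3-/- relative to Tet3m/m (-0.64 ± 0.04, adjusted p = 2.93e-12, limma). Its order of genotypes with EV was thus that of the cluster, but the list was mixed. Tasor (0.38 in Tet3m/m and -0.36 in Tet3-/-) and Hells (0.20 and -0.37) had that order too. Cbx3 (-0.81 and 0.20), Smarcad1 (-0.46 and 0.21) and Cbx5 (-0.29 and 0.28) had the opposite order. The part of Trim28 or of these genes in the result was not tested. On day 3 in Tet3m/m Resf1, a partner of SETDB1, rose by 1.00, and Cbx3, which codes for HP1 gamma, fell by 1.12 on the log2 scale, with falls of 0.75 for Smarcad1 and 0.64 for Ehmt2. With EV Cbx3 fell again in Tet3m/m, by 0.81, and no other gene of the list passed, where 21.2% of all genes did. In Tet3-/- none passed on day 3, where 0.642% of all genes did. In Tet3-/- with EV Chd3 rose by 1.36 and Dnmt3b fell by 0.67, where 24.9% of all genes passed in either direction. Relative to Tet3m/m, 2 rose and 2 fell in Tet3-/- on day 3, where 9.73% of all genes passed, and 3 rose and 3 fell with EV, where 39.6% did. Among 10 well-studied KRAB zinc-finger genes, of which Zfp932 is a member, 4 rose in Tet3m/m on day 3: Zfp600, Rex2 and Zfp534 of the cluster, and Zfp809 (0.95), which silences murine leukaemia virus. Zfp932, which binds endogenous retroviruses, differed by 0.11 ± 0.14, and Zfp445 and Zfp57, which protect imprinted marks, by 0.02 and 0.47. With EV Zfp57 rose by 1.42 ± 0.05 in Tet3m/m, and 5 of the 10 rose and 1 fell, where 10.3% of all genes were called higher and 10.9% lower.

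The Dnmt1 plasmid raised Dnmt1 mRNA in every genotype, by a log2 fold change of 0.64 in Tet3+/+, 0.90 in Tet3m/m and 1.06 in Tet3-/-, and the question is whether the members followed. In Tet3+/+ no member passed with limma, where 1.17% of all genes did (0.421% higher and 0.753% lower). An unadjusted p under 0.05 was found for 4 members and for 3592 of the 18055 genes tested. No member was called by edgeR or DESeq2 either, where they called 270 and 264 of all genes. In Tet3m/m no member passed with limma, where 2.46% of all genes did (1.78% higher and 0.681% lower). An unadjusted p under 0.05 was found for 7 members and for 4203 of the 18055 genes. Again no member was called by edgeR or DESeq2, where they called 467 and 438 of all genes. The median over Zfp978 to Zfp993 was -0.05 in Tet3+/+ and 0.17 in Tet3m/m. The cluster held 386 and 418 RPM in Tet3m/m with Dnmt1, against 357 and 358 with EV, and 169 and 172 in Tet3+/+ against 174 and 178. The higher level of the cluster in Tet3m/m was therefore also present with added Dnmt1, where Zfp978 was listed at 1361 and 1490 in Tet3m/m and at 422 and 463 in Tet3+/+.

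In Tet3-/- 4 members rose with Dnmt1, where 3.53% of all genes passed in either direction, 2.51% higher and 1.02% lower. Zfp978 went from 50.3 and 43.4 normalized counts to 73.2 and 75.0 (log2 fold change 0.65 ± 0.13, adjusted p = 0.00134, limma). Zfp987 went from 39.8 and 28.6 to 50.7 and 57.1 and Zfp989 from 8.93 and 11.6 to 20.1 and 26.2. Zfp997 rose on very few counts, from 0 and 5.29 to 8.04 and 10.7. All 4 stayed far below the Tet3+/+ samples with EV except Zfp997, listed there at 21.7 and 15.1, and the cluster as a whole held 58.1 and 53.0 RPM with Dnmt1 and 50.4 and 57.5 without. Cell-state markers moved in the same samples. In Tet3-/- the two-cell-like sum went from 988 and 981 with EV to 1737 and 1430 with Dnmt1, and the pluripotency sum from 4150 and 4287 to 6295 and 6129, without overlap. In Tet3+/+ the two-cell-like sum went the other way, from 12830 and 11814 to 7919 and 8195, and in Tet3m/m from 10908 and 12362 to 9297 and 9698. The part of these markers in the 4 calls was not tested. The calls were not stable. With edgeR and DESeq2 2 members each were called, where 583 and 543 of all genes were. A fit of only the 4 Tet3-/- samples called 0 members, and without Dnmt1 replicate 2 of Tet3-/- 2 were called. The difference between the Dnmt1 effects of 2 genotypes was tested directly. For Tet3m/m minus Tet3+/+ no member passed with limma, where 1.31% of all genes did (1.08% higher and 0.227% lower). An unadjusted p under 0.05 was found for 6 members and for 1963 of the 18055 genes tested. These 2 tests use an adjusted p under 0.05 with no fold threshold. For Tet3-/- minus Tet3+/+ 5 members passed, 4 with a more positive and 1 with a more negative effect in Tet3-/-, where 5.24% and 4.47% of all genes passed in these directions and 9.71% in either. That number was 1 without either Tet3+/+ EV sample, 3 and 2 without Tet3+/+ Dnmt1 replicates 1 and 2, and 9 without Tet3-/- Dnmt1 replicate 1.

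**Figure D5:**
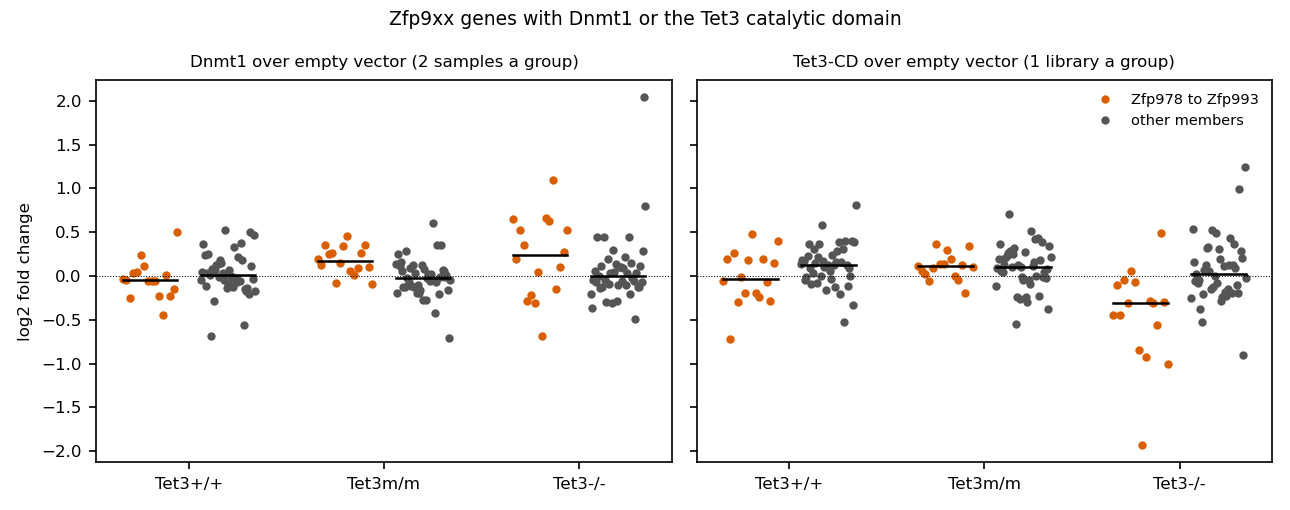
Log2 fold change (y axis) of each member with added Dnmt1 (left) or Tet3-CD (right) over the empty vector, by genotype (x axis), 1 point a gene, with Zfp978 to Zfp993 marked. The Dnmt1 panel compares 2 samples with 2 and the Tet3-CD panel 1 with 1; medians over Zfp978 to Zfp993 were -0.05, 0.17 and 0.23 with Dnmt1 and -0.03, 0.11 and -0.31 with Tet3-CD in Tet3+/+, Tet3m/m and Tet3-/-.

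Adding back the catalytic domain of Tet3 was measured in 1 sample a group, so the differences have no replicate check, no test was run and the values compare libraries. The Tet3 value went from 4755 to 5441 normalized counts in Tet3+/+, from 1850 to 5232 in Tet3m/m and from 2070 to 2759 in Tet3-/-. These counts do not separate transcript of the plasmid, which codes for the catalytic domain only, from that of the endogenous gene. In Tet3m/m the cluster held 212 RPM with EV and 228 with Tet3-CD, against 77.1 and 75.3 in Tet3+/+. Zfp978 was listed at 566 and 616 in Tet3m/m without and with Tet3-CD and at 90.8 and 86.9 in Tet3+/+. The cluster was thus as high with the catalytic domain as without it in these libraries. Only Zfp941 differed by more than 1.5-fold in Tet3m/m, from 143 to 235, where 4.58% of all genes were higher and 5.53% lower by as much. In Tet3+/+ Zfp998 was higher (19.2 to 34.6) and Zfp980 lower (105 to 63.2) by as much, where the shares of all genes were 6.11% and 7.3%. In Tet3-/- 2 members were higher and 5 lower, where the shares were 9.89% and 11.6%. The 5 were Zfp985, Zfp987, Zfp986 and Zfp993 of the cluster and Zfp996, and the cluster held 69.9 RPM with EV and 56.4 with Tet3-CD. Between genotypes with EV, 20 members were higher in Tet3m/m than in Tet3+/+ by over 1.5-fold, where 20.2% of all genes were. Of these 14 were from Zfp978 to Zfp993, whose median was 1.72, while the other 43 members had a median of -0.11. Zfp964 (161 in Tet3+/+ and 89.4 in Tet3m/m) and Zfp983 (168 and 101) were lower in Tet3m/m by over 1.5-fold. For Tet3-/- over Tet3+/+ with EV the median was -0.16 over Zfp978 to Zfp993 and -0.18 over the other members. With Tet3-CD the median over Zfp978 to Zfp993 was 1.62, and 21 members were higher, where 19.3% of all genes were. The two-cell-like markers summed to 13606 in Tet3m/m and 1579 in Tet3+/+ with EV, and to 13174 and 1247 with Tet3-CD. Other marker lists also differed between these EV libraries. Endoderm markers summed to 12517 in Tet3m/m and 50781 in Tet3+/+, the opposite order to that of the Dnmt1 experiment, and trophoblast markers to 9970 and 4257, again the opposite order. Pluripotency genes summed to 13890 and 6599, neuroectoderm markers to 17675 and 8274, mesoderm markers to 919 and 518 and fibroblast markers to 26795 and 30152. The part of these lists in the cluster values was not tested.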

How the data were processed

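RNA-seq of NE cells was used for 26 of the 35 samples. According to the study's methods, reads were trimmed with Trim Galore 0.6.7, aligned with STAR 2.7.9a to mm39 (the submitters' processing notes name mm10), counted per gene by featureCounts with reads given to the largest overlap, and scaled by DESeq2. How multiply mapped reads and strand were treated is not given in the sources used here. The deposited signal values are thus counts divided by a size factor, and the authors deposited only genes above a low level (lowest mean 9.46, 9.35 and 3.87 in the 3 tables). All deposited values were whole reads (within 0.01) after multiplication by 1 factor per sample, from which total reads and RPM were taken. No column belonged to a sample outside the series. DNA methylation, 5hmC and CUT&Tag samples were not analysed here.

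Values were tested as log2(value + 1) for genes with a mean of at least 10, with the groups of each experiment fitted together (limma 3.58.1 with a mean trend, R 4.3.3), and p-values were adjusted by Benjamini-Hochberg over all 17915 (day 3) or 18055 (Dnmt1 experiment) genes. Genes with an adjusted p under 0.05 and a fold above 1.5 were called, except that differences of the Dnmt1 effect between genotypes were called by the adjusted p alone. Fold changes on the log2(value + 1) scale understate those of low genes. The members, the split at Zfp978, the lists of genes and the tests were chosen with earlier results of these data known. Named are, for each comparison, the members with the largest changes among those called (up to 8), all of Zfp978 to Zfp993, the extremes of level, members called in both experiments, and those on chromosomes 6 and 8; the carriers of promoter words and the remaining called members were added after their values were seen. edgeR 4.0.16 and DESeq2 1.42.0 on the recovered reads, other pseudocounts, filters and scalings, and fits without each sample were the alternatives. The fits were tested on simulated data. Chromosomes and lengths came from GENCODE vM21 or RefSeq (GRCm38.p6), and promoters from RefSeq GRCm38.p6. In RefSeq 62 symbols match the name rule, and 7 of them (Zfp935, Zfp957, Zfp965, Zfp966, Zfp967, Zfp968 and Zfp973) are not among the 59. In the Dnmt1 table both Tet3+/+ EV columns carry one name, so they were used as unnumbered replicates.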

Additional observations from a re-analysis of the deposited data

Results flagged for a closer look

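The effect of the Dnmt1 plasmid differed between Tet3-/- and Tet3+/+ for 5 members by a test of the difference itself (limma, interaction, adjusted over all genes), where 9.71% of all genes passed. The difference of log2 fold changes, Tet3-/- minus Tet3+/+, was 1.54 for Zfp989 (adjusted p = 0.0119), 0.77 for Zfp980 (adjusted p = 0.0414), 0.73 for Zfp941 (adjusted p = 0.0324) and 0.68 for Zfp978 (adjusted p = 0.0175). For Zfp984 it was -0.42 (adjusted p = 0.0332). The share of members that passed, 5 of 59, was near that of all genes, and the number went to 1 when only the 8 compared samples were fitted, and to between 1 and 9 without single samples. No group held 4 or more samples, so single samples could not be tested as outliers.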

How the results depend on the processing

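In 5 of the 6 comparisons of genotypes the count of members called stayed within 1.5 times under the other pseudocounts, filters, scalings and tools, at 22 to 27 (Tet3m/m, day 3), 21 to 29 (Tet3-/- against Tet3m/m, day 3), 26 to 37 (Tet3m/m, EV), 30 to 39 (Tet3-/-, EV) and 33 to 42 (Tet3-/- against Tet3m/m, EV). No value of a called member was reversed in 1880 values of members and settings, and 105 no longer passed. For Tet3-/- against Tet3+/+ on day 3 (0 members) a pseudocount of 5 gave 1, DESeq2 2 and a fit of the compared groups alone 1, and over all genes limma called 115, limma on TMM scaling 67, edgeR 86 and DESeq2 917. For Dnmt1 in Tet3-/- (4 members) edgeR and DESeq2 gave 2 each, the compared groups alone 0 and no fold threshold 9, and without a fold threshold 1 member was called in Tet3+/+ and 1 in Tet3m/m. For the genotype difference in the Dnmt1 effect (5 members) the compared groups alone gave 1. A pseudocount of 5 moved the Zfp978 to Zfp993 median of Tet3-/- with EV from -1.98 to -1.93. With a mean of at least 50, members past 1.5-fold with Tet3-CD went from 10 to 6. No scaling moved the median of all genes by more than 0.1.

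Leaving out each sample in turn gave 18 to 22 members for Tet3m/m on day 3, 15 to 25 for Tet3-/- against Tet3m/m on day 3, 25 to 28 and 27 to 32 for Tet3m/m and Tet3-/- with EV, 2 to 6 for Dnmt1 in Tet3-/- (2 without its Dnmt1 replicate 2) and 1 to 9 for the genotype difference (both ends with single samples named above). The Zfp978 to Zfp993 medians ranged from 1.61 to 1.86 (Tet3m/m, day 3), -0.62 to 0.20 (Tet3-/-, day 3), -2.12 to -1.31 (Tet3-/- against Tet3m/m, day 3), 0.99 to 1.21 (Tet3m/m, EV) and -2.07 to -1.73 (Tet3-/-, EV). Replicate numbers did not pair the samples: deviations of same-numbered samples correlated by -0.1 to 0.08 on day 3 and -0.05 to 0.03 in the Dnmt1 experiment. With the replicate block 23 members were called for Tet3m/m, 0 for Tet3-/- and 23 for Tet3-/- against Tet3m/m on day 3, 34 for Tet3-/- against Tet3m/m with EV, and 0 and 4 for Dnmt1 in Tet3m/m and Tet3-/-. The Tet3-CD values have no spread between samples, and some of those past 1.5-fold rest on few counts, such as Zfp997 (5.01 to 13.2 normalized counts in Tet3-/-).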

Other observations

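Some carriers of CCTGCCAGTCAGAA that are not members also moved. EU599041 rose by 1.71 ± 0.33 in Tet3m/m on day 3 (adjusted p = 0.00741, limma), and Gm32856 differed by -0.66 ± 0.21 without passing (adjusted p = 0.0649, limma). Klf9, a Krüppel-like transcription factor, differed by 0.47 ± 0.10, short of the fold threshold (adjusted p = 0.0143, limma). With EV Klf9 was called in both edited genotypes, higher in Tet3m/m (0.90 ± 0.05, adjusted p = 7.97e-12, limma) and lower in Tet3-/- (-1.15 ± 0.05, adjusted p = 2.2e-13, limma). Gm32856 was called lower in both, with -0.74 ± 0.15 in Tet3m/m (adjusted p = 0.000276, limma) and -0.94 ± 0.15 in Tet3-/- (adjusted p = 1.44e-05, limma). With EV 11 of 21 tested carriers rose in Tet3m/m and 1 fell, where 10.3% of all genes were called higher and 10.9% lower. In Tet3-/- 7 fell and 1 rose, where 13.9% of all genes were called lower and 11% higher. Zfp951 and Zfp936, whose promoters gave the word, and Zfp977 are among both the 11 and the 7. The word was picked after values of these genes had been seen, so nothing is read from these counts.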
